A study of Mus musculus with 204 samples.

Results

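Hsd11b1 was taken as the single row of that symbol, Ensembl gene ENSMUSG00000016194, in a table of CPM for mouse tissues (reads of the gene in each 1e+06 reads of the library), so that it was 1 of 13153 genes. In the GENCODE M21 annotation of GRCm38 the gene is protein coding and lies on the minus strand of chromosome 1, from 193221634 to 193264075. The table held 23.7% of the genes of that annotation, and ranks and shares of all genes below refer to genes of the table only. The series covers 21 tissues of male, wild-type C57BL/6J mice, an inbred strain prone to obesity on fat-rich food, with RNA sequencing of each. Diet-induced obese (DIO) mice had been placed on a diet with 60% fat at 4 weeks of age and kept on it for 10 weeks. Lean mice stayed on standard chow with 13.1% fat. The mice carried no transgene or mutation, and the labels disagree on their age and do not say which libraries came from the same mouse. Each tissue had 5 DIO and 5 lean libraries, with 3 exceptions: 3 DIO and 5 lean libraries for subcutaneous fat, 4 DIO and 3 lean for mesenteric fat, and 5 DIO and 4 lean for the EDL, a fast muscle of the lower leg (extensor digitorum longus). The p-values below weigh differences against the spread between these libraries. Libraries of different tissues may come from the same mice, and contrasts across tissues treat them as independent.

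Hsd11b1 encodes an enzyme of the endoplasmic reticulum that turns the inert keto form of glucocorticoid back into the active hormone, which in mice is corticosterone. The active hormone then binds its receptor and changes transcription inside the same cell, so the enzyme sets local exposure apart from the level in blood. Liver and adipose tissue are the tissues for which the enzyme is best known, and mice made to produce more of it in adipocytes become obese and insulin resistant. C/EBP transcription factors, which include the product of Cebpb, are known to act on the promoter of the gene.

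The promoter is shown because 4 genes for regulators of Hsd11b1 transcription are described with the results. The window from RefSeq (GRCm38.p6, chr1:193242311-193242610, minus strand) runs from 250 bases before to 50 bases after the annotated start, and capitals mark the match to CCAAT.

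Hsd11b1 promoter: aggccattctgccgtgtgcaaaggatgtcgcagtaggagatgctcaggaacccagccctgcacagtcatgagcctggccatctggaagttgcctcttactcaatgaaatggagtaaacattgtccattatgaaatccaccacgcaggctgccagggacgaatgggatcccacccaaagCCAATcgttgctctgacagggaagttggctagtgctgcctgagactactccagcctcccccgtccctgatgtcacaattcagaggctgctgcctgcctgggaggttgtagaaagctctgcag

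Both strands were searched for CCAAT and for TTGCNNAA, 2 patterns that did not overlap here. CCAAT had 1 match, beginning at base 179 of the window on the strand of the gene, and 37.4% of 32851 promoter windows of the same length held it on either strand. TTGCNNAA had 0 matches in this window, and 10.8% of the windows held it. A match to either pattern does not say which factor binds there, and binding was not measured. GENCODE M21 lists 7 transcripts of Hsd11b1 with 7 different starts, 5 of them protein coding, and the table gives 1 value for the whole gene, so which start was used cannot be read from it. The annotations disagree on the start: 0 of the 7 GENCODE starts lie in this RefSeq window. The nearest, that of transcript Hsd11b1-201 at 193242629, lies 19 bases upstream of the window, so that the window and its CCAAT fall inside the span of that transcript.

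Libraries held from 6.58 to 129.7 M reads (M for 1e+06), with 20.7 M as the median and 30.9 M as the second highest. In liver Hsd11b1 rested on 10738 to 15694 reads per library, in the fat depots on 386 to 15231 and in duodenum on 28 to 86. Some libraries stood apart by markers of another tissue. Adrenal DIO 1, adrenal DIO 2 and adrenal lean 1 had 0.173, 0.0833 and 0 CPM of Hsd3b1, a steroid-making enzyme of the adrenal cortex, while the other 7 adrenal libraries had 4239 to 12653 CPM. Adrenal DIO 1 also had 7763 CPM of 6 hepatocyte markers. Lymphocyte markers reached 652 CPM in mesenteric fat and 832 CPM in subcutaneous fat, in single libraries, and muscle markers reached 1547 CPM in brown fat. In retroperitoneal fat hepatocyte markers reached 171 CPM in DIO and 203 CPM in lean libraries, and muscle markers reached 235 CPM in lean libraries.

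Hsd11b1 was highest in liver in both diets. In DIO mice liver averaged 502 ± 47.0 CPM (SD, n = 5), and the other 20 tissues averaged 115 CPM or less. In lean mice liver averaged 549 ± 27.5 CPM (n = 5), followed by subcutaneous fat with 409 ± 87.7 CPM (n = 5). The plot of levels by tissue shows that in lean mice the 5 fat depots came directly after liver, while in DIO mice they were spread over ranks 3 to 9.

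**Figure D1:**
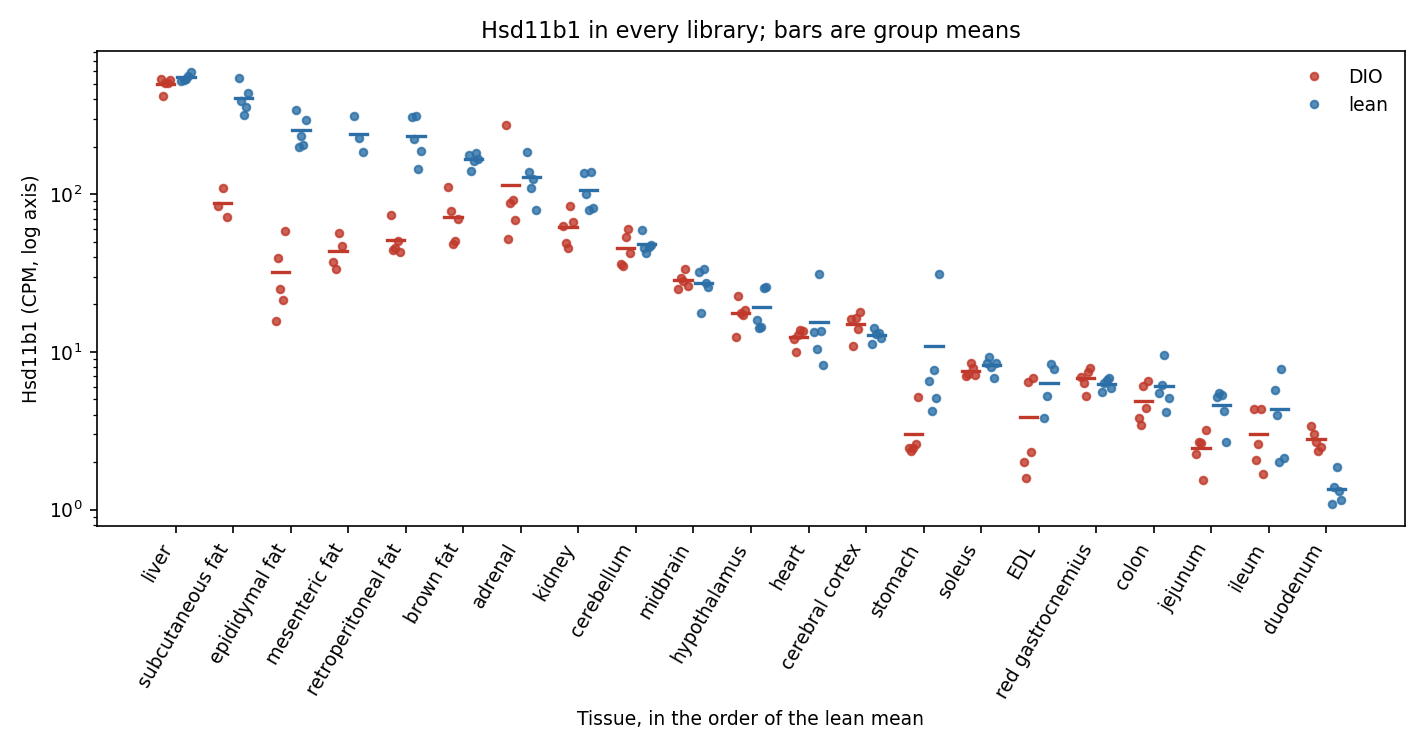
Hsd11b1 in each of the 204 libraries on a log axis of CPM, with DIO libraries in red and lean libraries in blue, bars at the group means, and tissues in the order of the lean mean. The red and blue points do not overlap in the 5 fat depots and lie together in liver, where DIO libraries ranged from 421 to 539 CPM and lean libraries from 524 to 592 CPM.

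In DIO mice the order of the means was liver, adrenal (115 CPM), subcutaneous fat (88.3), brown fat (71.5), kidney (61.6), retroperitoneal fat (51.3), cerebellum (45.2), mesenteric fat (43.4), epididymal fat (32.0), midbrain and brainstem (28.4), hypothalamus (17.7), cerebral cortex, heart (12.5), soleus (7.55), red gastrocnemius (6.79), colon (4.85), EDL (3.84), ileum (3.01), stomach, duodenum (2.78) and jejunum (2.46). In lean mice the order was liver, subcutaneous fat, epididymal fat (255 CPM), mesenteric fat (241), retroperitoneal fat (234.5), brown fat (166), adrenal (127), kidney (107), cerebellum (48.2), midbrain and brainstem (27.2), hypothalamus (19.1), heart (15.4), cerebral cortex (12.7), stomach (10.9), soleus (8.22), EDL (6.30), red gastrocnemius (6.26), colon (6.08), jejunum (4.58), ileum (4.33) and duodenum (1.36). Neighbours in this order were compared by exact two-sided permutation tests with Benjamini-Hochberg adjustment over 20 pairs. In neither diet did any of the 20 pairs pass an adjusted p of 0.05, while 3 pairs in DIO and 5 pairs in lean mice had an unadjusted exact p below 0.05. The smallest adjusted p was 0.0529, which the exact p of 0.00794 gave, the smallest that 5 against 5 libraries allow. Whether a pair at that floor passed therefore depended on how many pairs reached it. In DIO mice liver (421 to 539 CPM) and adrenal (52.2 to 272.5 CPM) did not overlap and yet did not pass. When libraries were rescaled by median-of-ratios factors, 0 DIO pairs and 5 lean pairs passed, among them liver over subcutaneous fat (exact permutation test, adjusted p = 0.0317). In 2 groups the mean rested on 1 library. The adrenal DIO mean was 75.3 CPM without DIO 1, a factor of 1.52 lower, which puts adrenal after subcutaneous fat. The adrenal means still held DIO 2 and lean 1, which like DIO 1 had almost no Hsd3b1, the enzyme of the adrenal cortex. The lean stomach mean was 5.89 CPM without lean 5, a factor of 1.85 lower, which moves stomach to place 18 of the 21.

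In subcutaneous fat, the depot under the skin, Hsd11b1 was at 84.1, 109 and 71.9 CPM in DIO libraries, against 544, 387, 319, 356 and 440 CPM in lean libraries. The groups did not overlap, as for 32.5% of the genes tested there, and the lowest lean library was above all 3 DIO libraries. The DIO mean of 88.3 ± 19.0 CPM was 78.4% lower than the lean mean of 409 ± 87.7 CPM. On the log2(CPM + 1) scale used for all fold changes here, DIO over lean was -2.20 ± 0.21 (SE, adjusted p = 0.00202, limma), where 12.5% of the 2198 genes tested were called. In bulk tissue, fewer cells of a type and less RNA per cell cannot be told apart.

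In mesenteric fat, the depot along the gut, Hsd11b1 was at 36.9, 33.5, 56.4 and 46.9 CPM in DIO libraries, against 311, 227 and 184 CPM in lean libraries. The groups did not overlap, as for 63.5% of genes there. The difference was -2.44 ± 0.23 (adjusted p = 8.03e-04, limma), where 44.9% of genes were called. The exact permutation p of Hsd11b1 in this depot was 0.0571, the smallest that 4 against 3 libraries can give.

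The epididymal depot, the fat pad of the testis, had the largest point difference of the 5. Hsd11b1 was at 15.8, 39.3, 25.1, 21.2 and 58.7 CPM in DIO libraries, against 339, 200, 232.5, 206 and 297 CPM in lean libraries. The groups did not overlap, as for 39.9% of genes there, although DIO libraries varied among themselves (coefficient of variation 53.9% in DIO, 23.9% in lean). The lean mean was 7.96 times the DIO mean, and the difference was -3.07 ± 0.30 (adjusted p = 2.96e-06, limma), where 54.1% of genes were called. Counted from the deepest fall, Hsd11b1 was number 4 of the 2155 genes tested in this depot.

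In retroperitoneal fat, behind the abdominal cavity, Hsd11b1 was at 73.5, 43.9, 45.5, 50.7 and 42.6 CPM in DIO libraries, against 307, 223, 313, 143 and 186 CPM in lean libraries. The groups did not overlap, as for 34.8% of genes. The difference was -2.14 ± 0.23 (adjusted p = 1.29e-05, limma), where 45.1% of genes were called, and Hsd11b1 was number 11 of 2123 genes from the deepest fall.

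In brown fat, the depot specialised for heat production, Hsd11b1 was at 111, 78.0, 48.4, 50.6 and 69.2 CPM in DIO libraries, against 177, 141, 163, 182 and 167 CPM in lean libraries. The groups did not overlap, as for 30.8% of genes. The difference was -1.27 ± 0.19 (adjusted p = 2.81e-04, limma), where 44.1% of genes were called. The DIO mean was 57.0% lower than the lean mean, against 78.1% to 87.4% lower in the other depots.

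Relative levels of all genes were not centred on 0 in every depot. The median difference over all genes tested was 0.40 in mesenteric, 0.25 in retroperitoneal and 0.17 in epididymal fat, and under 0.1 in size in subcutaneous and brown fat. After rescaling by median-of-ratios factors Hsd11b1 differed by -2.85 in mesenteric, -2.39 in retroperitoneal and -3.23 in epididymal fat, so the fall was deeper relative to the other genes in these 3 depots. In subcutaneous, mesenteric, retroperitoneal and brown fat the call and direction were the same after leaving out the libraries that stood apart by their markers, for example -2.33 in subcutaneous fat without lean 2 and lean 3. No library of epididymal fat was doubted for its markers, but the marker lists held no gene chosen for the epididymis. Lean epididymal libraries reached 21.6 CPM of Hnf4a and 11.5 CPM of the small intestine marker Vil1, against at most 0.0695 and 0.760 CPM in DIO libraries. The source of these reads was not tested.

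**Figure D2:**
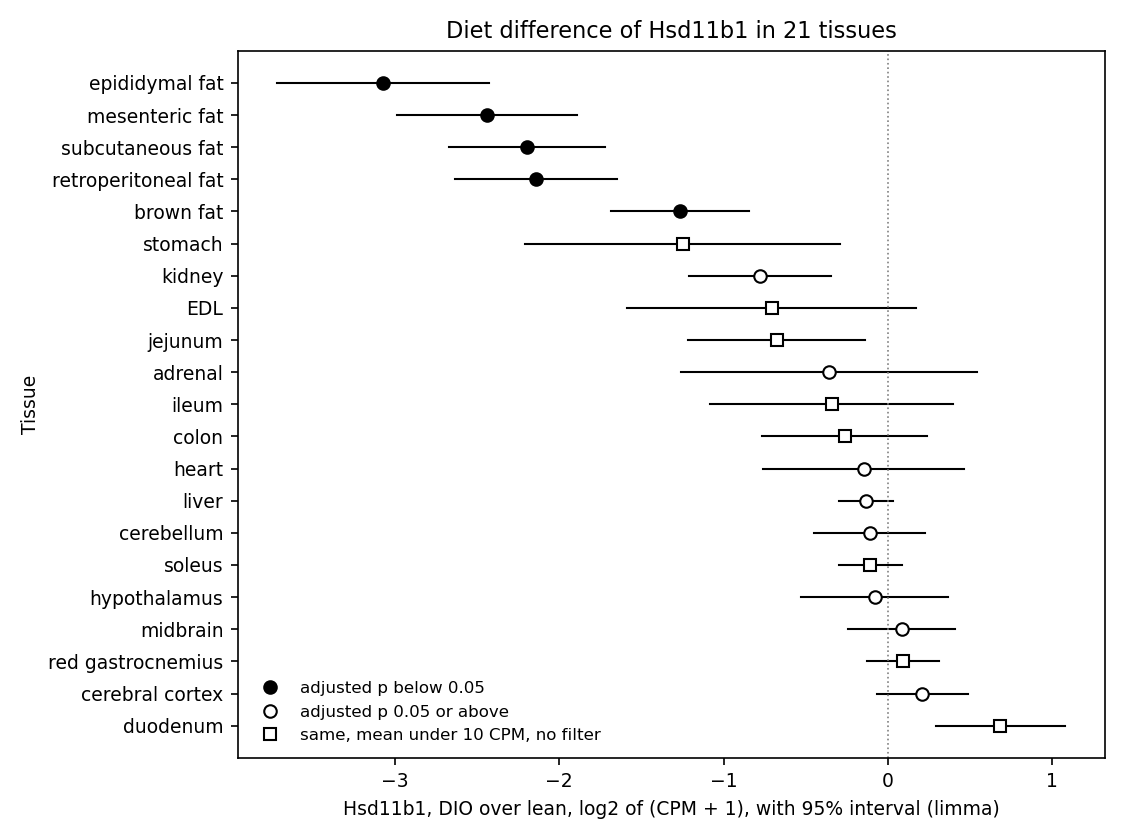
Difference of Hsd11b1 between DIO and lean libraries on the log2(CPM + 1) scale in each of 21 tissues, with 95% intervals from limma; filled symbols have an adjusted p below 0.05 and squares are tissues in which Hsd11b1 averaged under 10 CPM. The 5 fat depots, from -3.07 in epididymal to -1.27 in brown fat, are the tissues with filled symbols, and liver lies at -0.13.

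In liver, where glucocorticoids induce the genes of glucose production, the diets differed little. Hsd11b1 was at 539, 421, 509, 510 and 531 CPM in DIO libraries, against 524, 533, 536, 561 and 592 CPM in lean libraries. The groups overlapped, and DIO 2 at 421 CPM was the lowest library. The difference was -0.13 ± 0.08 (adjusted p = 0.214, limma) with a 95% interval from -0.30 to 0.03, where 27% of the genes tested were called. DESeq2 on the whole reads recovered from CPM gave -0.22 and an adjusted p of 0.0338.

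The diet difference in each fat depot was then set against that in liver in 1 limma fit over the libraries of these 6 tissues, in which the 5 contrasts share the liver libraries. The depot difference was lower than the liver difference by all 5 tests. It was -2.94 ± 0.33 for epididymal (adjusted p = 6.5e-10, 41.5% of genes called), -2.31 ± 0.36 for mesenteric (adjusted p = 5.8e-06, 30.8%) and -2.06 ± 0.35 for subcutaneous fat (adjusted p = 3.6e-05, 15.7%). It was -2.01 ± 0.33 for retroperitoneal (adjusted p = 4.8e-06, 34.5%) and -1.13 ± 0.33 for brown fat (adjusted p = 0.0158, 12.1%). An F test of the diet difference among the 21 tissues also passed (F = 13.1, adjusted p = 4.1e-23), as it did for 64.6% of 2587 genes.

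As a share of the liver mean, Hsd11b1 in DIO mice was at 17.6% in subcutaneous, 8.65% in mesenteric, 6.37% in epididymal, 10.2% in retroperitoneal and 14.2% in brown fat. In lean mice the shares were 74.6%, 43.8%, 46.4%, 42.7% and 30.3% in the same depots. These shares depended on the scaling: after median-of-ratios rescaling they were 9.87%, 4.3%, 3.53%, 5.80% and 12.5% in DIO and 38.9%, 26.0%, 26.8%, 26.5% and 26.1% in lean mice, so that lean brown fat was then level with mesenteric, epididymal and retroperitoneal fat. In DIO mice each depot was below liver by limma, with log2 differences from -4.07 in epididymal to -2.51 in subcutaneous fat, where 81.6% of genes were called between subcutaneous fat and liver, 86.6% for mesenteric, 86.4% for epididymal, 84.5% for retroperitoneal and 72.8% for brown fat. In lean mice the difference passed in 4 depots, from -1.72 in brown to -1.13 in epididymal fat, where 80.8% of genes were called for mesenteric, 82.1% for epididymal, 81% for retroperitoneal and 74.1% for brown fat. For lean subcutaneous fat it was -0.45 (adjusted p = 0.0672, 88.5% of genes called). That difference also depended on the scaling, at -1.44 (adjusted p = 5.5e-07) after median-of-ratios rescaling and -1.23 (adjusted p = 2.0e-05) by edgeR with TMM factors.

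The size of the fall differed between depots (F test in limma, F = 6.54, adjusted p = 0.00173), as it did for 60.5% of 2143 genes. In 10 pairwise contrasts of the same fit, added after the values had been seen, 2 passed. The fall was deeper in epididymal than in brown fat by -1.81 ± 0.36 (adjusted p = 1.2e-04, 38% of genes called) and deeper in mesenteric than in brown fat by -1.17 ± 0.40 (adjusted p = 0.0497, 10.7% called). Between epididymal and retroperitoneal fat the difference of -0.93 had a 95% interval from -1.65 to -0.21 before adjustment and did not pass (adjusted p = 0.275, 0.233% of genes called). Subcutaneous and retroperitoneal fat differed by -0.06, with an interval from -0.84 to 0.73 (38.8% called). The other contrasts that did not pass were subcutaneous minus mesenteric (0.24, 32.8% called), subcutaneous minus epididymal (0.88, 44.9%) and subcutaneous minus brown fat (-0.93, 10.3%). They were also mesenteric minus epididymal (0.63, 16.6%), mesenteric minus retroperitoneal (-0.30, 0.793%) and retroperitoneal minus brown fat (-0.87, 28.2%). The contrasts that did not pass had adjusted p of 0.0620 to 0.916 (limma), adjusted over genes within each contrast and not over the contrasts. Before adjustment the 95% interval was 0.09 to 1.66 for subcutaneous minus epididymal fat. It was -1.71 to -0.15 for subcutaneous minus brown and -1.60 to -0.15 for retroperitoneal minus brown fat. For subcutaneous minus mesenteric, mesenteric minus epididymal and mesenteric minus retroperitoneal fat it held both signs.

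Kidney came closest to the fat depots among the other tissues above 10 CPM. Hsd11b1 was at 62.9, 48.9, 45.5, 83.9 and 66.5 CPM in DIO kidneys, against 135, 100.3, 78.9, 138 and 81.2 CPM in lean kidneys. The groups overlapped by DIO 4, which lay above lean 3 and lean 5. The difference was -0.78 ± 0.20 (adjusted p = 0.107, limma), where 0.0505% of 1979 genes, a single gene, was called. DESeq2 gave an adjusted p of 0.00409, limma with array weights gave 0.0478, and the exact permutation p of this single value was 0.0238.

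Libraries labelled adrenal, the gland that makes corticosterone, gave no difference beyond their spread. Of these, DIO 1, DIO 2 and lean 1 had almost no Hsd3b1, so this marker of the adrenal cortex did not bear out their label. Hsd11b1 was at 272.5, 52.2, 88.3, 92.0 and 68.7 CPM in DIO libraries, against 184, 139, 110, 125 and 79.3 CPM in lean libraries. The highest value was DIO 1, the library with 7763 CPM of hepatocyte markers and 3651 CPM of the hepatocyte gene Apoa2. The difference was -0.36 ± 0.41 (adjusted p = 0.865, limma, 0.128% of genes called), and it was -0.43 (adjusted p = 0.317) without DIO 1, DIO 2 and lean 1. Without DIO 1 alone it was -0.73 (adjusted p = 0.501). The part of the hepatocyte RNA in the value of DIO 1 was not tested.

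In the intestine the levels were a few CPM, and all genes with a read were fitted there because Hsd11b1 averaged under 10 CPM. In duodenum Hsd11b1 was at 3.40, 2.99, 2.67, 2.35 and 2.48 CPM in DIO libraries, against 1.08, 1.39, 1.86, 1.31 and 1.14 CPM in lean libraries. The groups did not overlap, as for 1.75% of 7078 genes, and DIO libraries were the higher ones. The difference of 0.68 ± 0.18 did not pass (adjusted p = 0.220, limma, 0.127% of genes called), while DESeq2 gave 0.90 with an adjusted p of 0.00125.

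In jejunum, the next segment, Hsd11b1 was at 2.26, 2.69, 2.65, 1.54 and 3.17 CPM in DIO libraries, against 5.15, 5.48, 5.34, 4.23 and 2.69 CPM in lean libraries. The groups overlapped by lean 5, and the difference was -0.68 ± 0.25 (adjusted p = 0.208, limma, 1.3% of genes called). The diet difference in duodenum minus that in jejunum, a test added after the values had been seen, was 1.36 ± 0.27 (adjusted p = 0.0409, limma), where 0.325% of 7374 genes were called. The median of all genes moved by 0.11 in duodenum and by -0.12 in jejunum. In ileum the difference was -0.34 (adjusted p = 0.868) and in colon -0.26 (adjusted p = 0.702), both limma, where 0 genes were called. At an unadjusted p below 0.05 limma had 287 genes in ileum and 801 in colon, while edgeR called 1 and 22 genes and DESeq2 1 and 177 genes there.

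In stomach, sampled at the lesser curvature, Hsd11b1 was at 2.47, 2.35, 2.44, 2.60 and 5.13 CPM in DIO libraries, against 6.53, 4.22, 7.70, 5.12 and 31.0 CPM in lean libraries. Lean 5 lay far above the rest and had 963 CPM of hepatocyte markers, while DIO 5, the highest DIO library, had 134 CPM of them. Without lean 5 the difference was -0.80, against -1.25 ± 0.44 with it (adjusted p = 0.640, limma, 0.0154% of genes called). The part of liver RNA in these libraries was not tested.

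In heart Hsd11b1 was at 12.1, 9.99, 12.8, 13.8 and 13.5 CPM in DIO libraries, against 13.3, 10.5, 31.3, 13.5 and 8.31 CPM in lean libraries. Lean 3 stood apart at 31.3 CPM, and the same library had 1118 CPM of Fabp4 and 11.1 CPM of Acvr1c, while the other 9 heart libraries had at most 0.103 CPM of Acvr1c. Fabp4 encodes a fatty acid carrier of adipocytes and Acvr1c an adipocyte receptor of the TGF-beta family. The difference of -0.15 (adjusted p = 0.994) turned to 0.13 (adjusted p = 0.960, both limma) without lean 3.

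In the EDL muscle Hsd11b1 was at 2.00, 1.58, 6.48, 2.32 and 6.85 CPM in DIO libraries, against 3.81, 5.24, 8.41 and 7.75 CPM in lean libraries. DIO 3 and DIO 5, the higher ones, had 1020 and 370 CPM of Fabp4, while the other 3 DIO libraries had 92.9 to 128 CPM and the lean libraries 115 to 175 CPM. The groups overlapped, and the difference was -0.71 ± 0.40 (adjusted p = 0.836, limma). In soleus, red gastrocnemius and the 4 brain regions DIO and lean libraries overlapped, with differences from -0.11 in cerebellum and soleus to 0.21 in cerebral cortex and adjusted p of 0.727 or above. In limma without a filter, 0.271% of genes were called in soleus, 0.743% in red gastrocnemius and 0% in EDL, and with the filter 0.114% in heart. In the EDL 158 genes had an unadjusted p below 0.05 in limma, edgeR called 0 genes and DESeq2 called 2. In the 4 brain regions limma, edgeR and DESeq2 each called 0 genes, with 16 genes in cerebellum to 66 in cerebral cortex at an unadjusted p below 0.05 in limma, and Hsd11b1 had exact permutation p of 0.143 to 0.722 there.

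The fat depots differed between diets in markers of cell types as well. Over all genes tested, 8.83% rose and 3.64% fell in subcutaneous fat, 38% and 6.9% in mesenteric, 36.3% and 17.8% in epididymal, 35% and 10% in retroperitoneal and 29% and 15.1% in brown fat, and 20.9% and 6.06% in liver. All 6 macrophage markers tested rose in mesenteric, epididymal and retroperitoneal fat, with sums of 1575 to 4696 CPM in DIO and 128 to 196 CPM in lean epididymal libraries. In subcutaneous fat 1 of 5 rose, with sums of 239 to 370 CPM in DIO and 93.7 to 653 CPM in lean libraries. The lean group there held lean 2 and lean 3, which stood apart by their markers. The macrophage, stromal, endothelial and lymphocyte counts of this depot are not given without them. A marker not called there was therefore not shown to be unchanged. In brown fat the 2 macrophage markers tested rose, with sums of 22.0 to 72.7 CPM in DIO and 13.2 to 21.8 CPM in lean libraries. Stromal markers rose too, 4 of 4 in mesenteric and epididymal, 3 of 4 in retroperitoneal and brown, and 1 of 4 in subcutaneous fat, but after rescaling 1 of 4 rose in mesenteric and 0 of 4 in subcutaneous fat. All 3 endothelial markers rose in brown fat (Eng 1.08, Egfl7 0.80 and Emcn 0.67), with sums of 238 to 293 CPM in DIO and 111 to 162 CPM in lean libraries. In epididymal fat Egfl7 (-1.20) and Emcn (-0.71) fell, with sums of 159 to 289.5 CPM in DIO and 267 to 349 CPM in lean libraries. In subcutaneous fat 1 of 3 rose. In mesenteric and retroperitoneal fat 1 of 3 rose as well, but both calls were lost after rescaling. Of 4 lymphocyte markers 0 changed in subcutaneous and mesenteric fat by limma or edgeR, with 0 and 2 at an unadjusted p below 0.05 in limma. The part of these markers in the fall of Hsd11b1 was not tested.

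Of the 4 adipocyte markers, 0 changed in subcutaneous fat by limma or edgeR (1 at an unadjusted p below 0.05 in limma), 2 fell in mesenteric, 4 fell in epididymal and 3 fell in retroperitoneal fat. In brown fat the lipolysis inhibitor G0s2 rose and the insulin signalling adaptor Irs1 fell. The sums in DIO and lean libraries were 15956 to 17977 and 8711 to 21405 CPM in subcutaneous fat, and 7589 to 8386 and 7238 to 8493 CPM in brown fat, so they overlapped in the 2 depots. The lean group of subcutaneous fat held lean 2 and lean 3, which stood apart by their markers. Its marker counts and sums are not given without them, so the overlap there does not show that adipocyte RNA was unchanged. The sums in DIO and lean libraries were 7023 to 13839 and 13825 to 15389 CPM in mesenteric, 3868 to 10623 and 13110 to 19104 CPM in epididymal, and 5700 to 10589 and 12801 to 27705 CPM in retroperitoneal fat, with the highest DIO sum just above the lowest lean sum in mesenteric fat and no overlap in the other 2 depots.

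Hsd11b1 was therefore also given per Fabp4 within each library. Fabp4 made up most of the adipocyte marker sums of the fat depots, so these sums and the ratio are not separate evidence. Whether all Fabp4 reads came from adipocytes was not tested. The log2 ratio in DIO minus that in lean libraries was -2.39 (subcutaneous), -1.99 (mesenteric), -1.89 (epididymal), -1.28 (retroperitoneal) and -1.27 (brown fat). DIO and lean ratios did not overlap in any depot. The exact permutation test adjusted over 5 depots gave p = 0.0132 in epididymal, retroperitoneal and brown fat, 0.0446 in subcutaneous fat and 0.0571 in mesenteric fat. In subcutaneous fat Fabp4 itself was at 16380 ± 1028 CPM in DIO and 15344 ± 5857 CPM in lean libraries, and in brown fat at 7603 ± 337 CPM in DIO and 7606 ± 578 CPM in lean libraries. Lean subcutaneous libraries ranged from 8530 to 20879 CPM of Fabp4. They included lean 2 and lean 3, which stood apart by their markers, and the ratio was not repeated without these.

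In epididymal fat the fall per Fabp4 (-1.89) was smaller than the fall in CPM (-3.07). The 5 DIO libraries of that depot, taken from the lowest to the highest Fabp4, had 3752, 4988, 6578, 8661 and 10310 CPM of Fabp4 and 15.8, 25.1, 21.2, 39.3 and 58.7 CPM of Hsd11b1. Per Acvr1c the differences were smaller, at -2.00 (subcutaneous), -1.57 (mesenteric), -0.94 (epididymal), -0.79 (retroperitoneal) and -1.03 (brown fat). DIO and lean ratios to Acvr1c overlapped in retroperitoneal and brown fat and not in the other 3 depots.

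**Figure D3:**
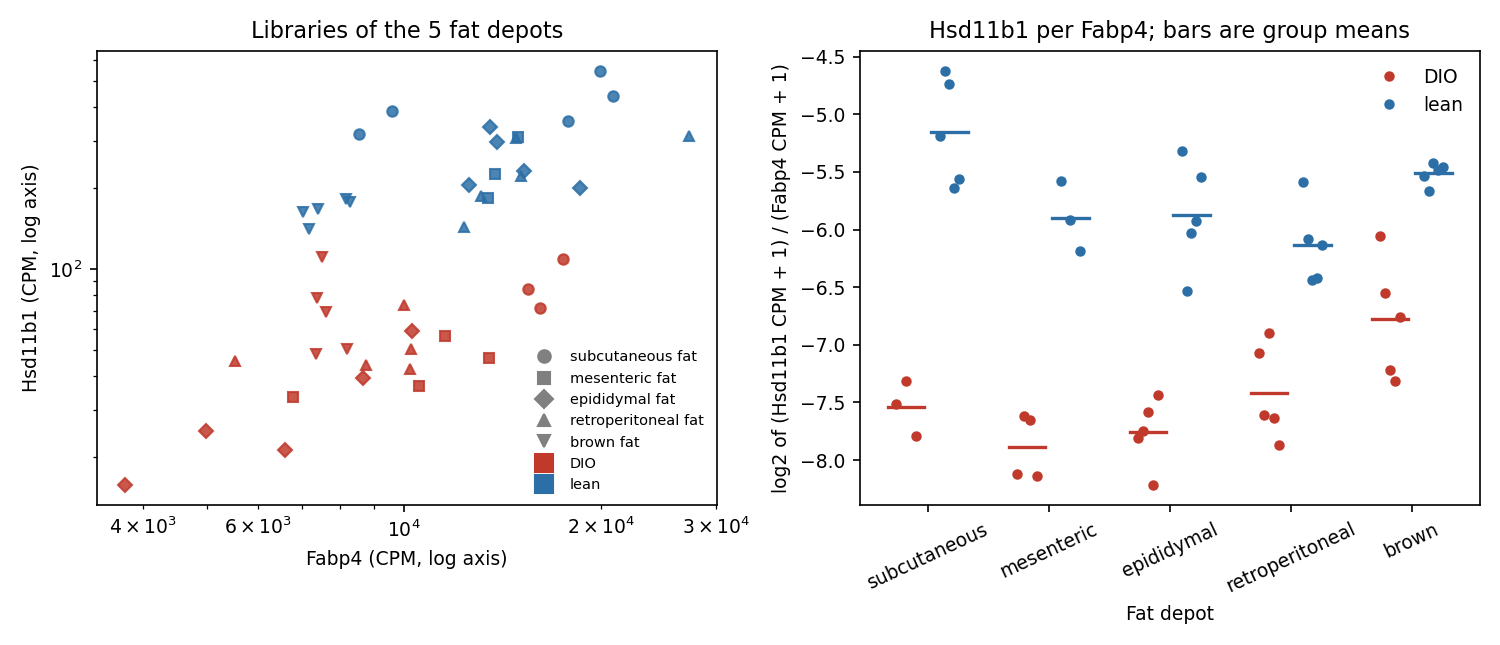
Left, Hsd11b1 against Fabp4 in each library of the 5 fat depots, both in CPM on log axes, with DIO in red and lean in blue and a symbol for each depot. Right, log2 of Hsd11b1 per Fabp4 in each library with bars at the group means; in each depot the DIO points lie below the lean points, by 1.27 in brown to 2.39 in subcutaneous fat.

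Genes that glucocorticoids are known to induce did not fall as a group with Hsd11b1. Of 10 such genes, 1 rose and 1 fell of 9 tested in subcutaneous fat, 3 rose and 2 fell of 9 in mesenteric, 3 rose and 3 fell of 10 in epididymal, 4 rose and 1 fell of 9 in retroperitoneal, and 3 rose and 2 fell of 8 in brown fat. In liver 5 rose and 0 fell of 9 by limma, with 6 of the 9 at an unadjusted p below 0.05, and edgeR had 4 that rose and 0 that fell. Members called in either direction made up 22.2%, 55.6%, 60%, 55.6%, 62.5% and 55.6% of those tested in these 6 tissues, beside 12.5%, 44.9%, 54.1%, 45.1%, 44.1% and 27% of all genes, so that in mesenteric, epididymal and retroperitoneal fat they were near the share of all genes. The median log2 difference of the tested members was 0.33, 0.31, 0.28, 0.32, 0.22 and 0.35 in these 6 tissues, beside medians over all genes tested of -0.02, 0.40, 0.17, 0.25, 0.05 and 0.09. Several of these genes also answer to insulin, feeding or inflammation.

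Pck1, for the enzyme that feeds glycerol and glucose synthesis, fell in the 4 white depots. In epididymal fat it averaged 309 ± 211 CPM in DIO and 2244 ± 894 CPM in lean libraries (-2.99 ± 0.35, adjusted p = 1.6e-05, limma), and its log2 difference was -2.02 in subcutaneous, -1.63 in mesenteric and -1.83 in retroperitoneal fat. In brown fat Pck1 averaged 3190 ± 287 CPM in DIO and 3139 ± 581 CPM in lean libraries (0.04, adjusted p = 0.834, limma).

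Tsc22d3, for the leucine zipper protein that is a classical glucocorticoid target, rose in mesenteric fat to 158 ± 26.7 CPM in DIO, against 64.1 ± 16.6 CPM in lean libraries (1.31 ± 0.22, adjusted p = 0.00458, limma). In subcutaneous fat it averaged 147 ± 19.6 CPM in DIO and 97.4 ± 14.3 CPM in lean libraries (0.59 ± 0.15, adjusted p = 0.0393, limma; 0.058 after rescaling). In liver it was at 47.9 ± 11.8 CPM in DIO and 48.4 ± 16.6 CPM in lean libraries.

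Rgs2, a brake on G-protein signalling, rose in mesenteric (1.35), epididymal (2.19) and retroperitoneal fat (2.39) and fell in brown fat (-1.29, adjusted p = 0.0396, limma). Glul, for glutamine synthetase, averaged 674 ± 103 CPM in DIO and 1807 ± 287 CPM in lean brown fat (-1.42), and 1305 ± 72.4 CPM in DIO and 961 ± 34.0 CPM in lean liver (0.44). The liver rises also held Tgm2, Mertk, Fmo2 and Lcn2; Lcn2, for an iron-carrier binding protein, ranged from 7.34 to 393 CPM in DIO and from 0.490 to 2.03 CPM in lean livers. Mertk in liver and Tgm2 and Mertk in retroperitoneal fat lost their calls after rescaling.

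Of 5 genes that glucocorticoids are known to repress, 2 were above the filter in the white depots. Ptges, for a prostaglandin E synthase, fell in each of the 4, as Hsd11b1 did, with log2 differences of -1.78 (subcutaneous), -1.97 (mesenteric), -1.79 (epididymal) and -1.96 (retroperitoneal). In epididymal fat Ptges averaged 39.7 ± 3.68 CPM in DIO and 142 ± 27.1 CPM in lean libraries (adjusted p = 4.2e-07, limma). Vcam1, for an adhesion molecule of endothelium, rose in mesenteric (1.39), epididymal (1.12) and retroperitoneal fat (2.01) and had a difference of -0.37 in subcutaneous fat (adjusted p = 0.782, limma); the mesenteric call was lost after rescaling.

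Of the genes of 4 transcription factors known to act on Hsd11b1, 2 of 3 tested were called in epididymal fat, where 54.1% of all genes were called, and 1 of 3 in mesenteric (44.9% of all genes) and brown fat (44.1%). In subcutaneous and retroperitoneal fat 0 of 3 tested were called and in liver 0 of 4, by limma and by edgeR; at an unadjusted p below 0.05 limma had 0 in each of these depots and 1 in liver. Cebpb averaged 31.5 ± 9.18 CPM in DIO and 17.5 ± 3.28 CPM in lean epididymal fat (0.79 ± 0.18, adjusted p = 0.00292, limma), opposite in direction to Hsd11b1. Foxo1, for an insulin-regulated factor, fell in epididymal fat (-0.58, adjusted p = 0.0156, limma) and rose in mesenteric fat (0.78, adjusted p = 0.012, both limma; 0.37 and not called after rescaling). Nr1h3, for a liver X receptor, had a difference of -0.17 in epididymal fat (adjusted p = 0.199, limma), which was -0.33 and called after rescaling (adjusted p = 0.0310). It rose in brown fat by 0.20 (adjusted p = 0.00227, limma), which fell to 0.08 and was not called after rescaling. Hnf4a averaged under 10 CPM in the fat depots, with single libraries at up to 21.6 CPM in lean epididymal and 10.2 CPM in DIO retroperitoneal fat. In liver it was at 480 ± 70.4 CPM in DIO and 566 ± 94.5 CPM in lean libraries (-0.23, adjusted p = 0.197, limma).

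Of the other steroid enzymes, Hsd17b10 and Hsd17b12 fell in several fat depots and rose in liver. Hsd17b10, a mitochondrial dehydrogenase of steroids and acyl-CoA, fell in mesenteric (-0.74), epididymal (-0.96), retroperitoneal (-0.90) and brown fat (-0.30). In liver it averaged 157 ± 17.5 CPM in DIO and 99.5 ± 14.1 CPM in lean libraries (0.65 ± 0.11, adjusted p = 0.00136, limma). Hsd17b12, which also serves fatty acid elongation, fell in mesenteric (-1.36), retroperitoneal (-0.66) and brown fat (-0.49) and rose in liver (0.48). Hsd17b7, which also serves cholesterol synthesis, rose in liver (0.82). Cyp7b1, for an oxysterol hydroxylase, averaged 101 ± 38.8 CPM in DIO and 253 ± 51.5 CPM in lean livers (-1.44 ± 0.31, adjusted p = 0.00668, limma). No test was made of a difference between fat and liver for these genes.

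**Figure D4:**
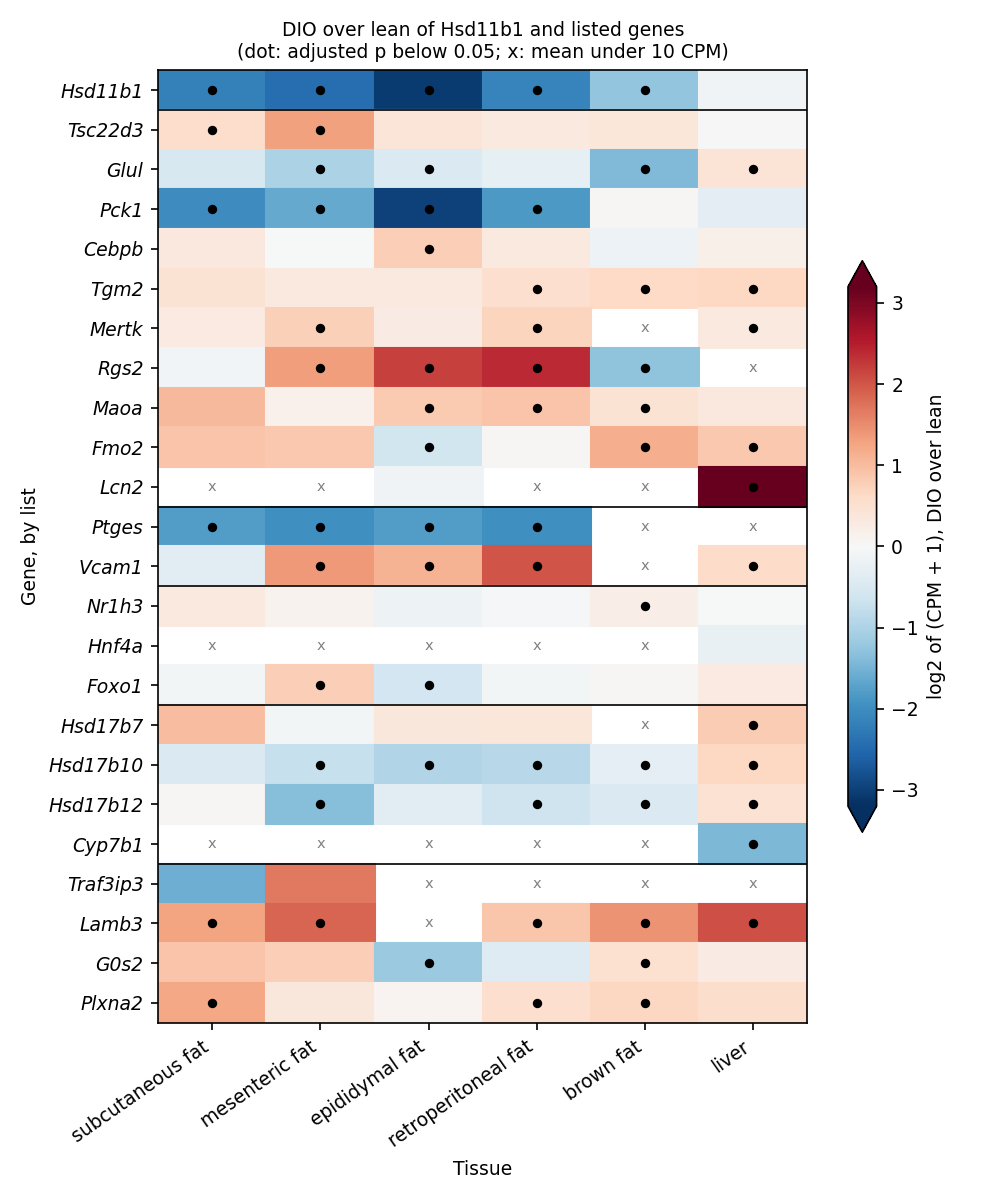
Difference between DIO and lean libraries on the log2(CPM + 1) scale for Hsd11b1 and listed genes in 5 fat depots and liver, with lists from top to bottom: glucocorticoid-induced, glucocorticoid-repressed, regulators of Hsd11b1, other steroid enzymes and neighbours on chromosome 1. Blue is lower and red higher in DIO, a dot marks an adjusted p below 0.05 and a cross a mean under 10 CPM; Hsd11b1 and Ptges are blue with dots in the 4 white depots, while Tgm2 and Lamb3 are red wherever they were tested.

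Genes beside Hsd11b1 on chromosome 1 did not share its fall across the depots. G0s2 lies 8086 bases away on the same strand. It averaged 144 ± 61.9 CPM in DIO and 307 ± 47.6 CPM in lean epididymal fat (-1.19 ± 0.27, adjusted p = 0.00236, limma), and 162 ± 25.4 CPM in DIO and 112 ± 8.39 CPM in lean brown fat (0.52 ± 0.10, adjusted p = 0.00177, limma). In subcutaneous fat it averaged 296 ± 10.9 CPM in DIO and 202 ± 142 CPM in lean libraries (0.91, adjusted p = 0.384, limma). Plxna2, 1354143 bases away, rose in subcutaneous (1.23), retroperitoneal (0.55) and brown fat (0.69), the retroperitoneal call being lost after rescaling.

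Lamb3, for a laminin chain, overlaps Hsd11b1 on the opposite strand. It rose in subcutaneous (1.28), mesenteric (1.86), retroperitoneal (0.89) and brown fat (1.44) and in liver (2.07). Lamb3 averaged 19.0 CPM in DIO and 7.73 CPM in lean subcutaneous fat, and 18.4 CPM in DIO and 3.57 CPM in lean liver. The library kit marks strand, but whether counting used it is not given in the sources used here, so reads of the overlapping genes may not have been told apart. The other overlapping genes, 4930570N18Rik and Gm38118, averaged at most 0.432 CPM in any group of fat or liver.

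Over the 21 lean tissue means of log2(CPM + 1), the 5 genes most like Hsd11b1 of 3524 compared were Cp (Pearson r = 0.89), Acss2 (0.89), 4930412C18Rik (0.88), G0s2 (0.88) and Rbms1 (0.87). The points share library depth and the contrast of liver and fat with the other tissues. Cp, for the copper carrier ceruloplasmin, fell in the 5 depots, by 1.55 in subcutaneous and 0.58 in brown fat, and was at 1493 CPM in DIO and 1264 CPM in lean liver (0.22, adjusted p = 0.169, limma). Acss2, for an acetyl-CoA synthetase of the cytosol, fell in the 5 depots too, by 3.06 in mesenteric and 1.11 in subcutaneous fat. Rbms1, for an RNA-binding protein, rose in the 5 depots, by 0.24 in brown to 0.68 in mesenteric fat.

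By the diet difference over the 21 tissues the most alike were Slc43a1 (r = 0.94), Echdc3 (0.90), Ptges (0.90), Lman2l (0.89) and Adgrg2 (0.87). The differences of 2 genes within a tissue come from the same libraries. Slc43a1, for an amino acid transporter, averaged 10.1 CPM in DIO and 54.5 CPM in lean epididymal fat (-2.33, adjusted p = 1.4e-07, limma), and Adgrg2, for an adhesion receptor, 4.64 CPM in DIO and 88.4 CPM in lean epididymal fat (-3.77). Lean means of Adgrg2 were lower in subcutaneous (21.8 CPM), mesenteric (31.8 CPM) and retroperitoneal fat (24.0 CPM), where it fell as well. Lean epididymal libraries also held the reads of Hnf4a and Vil1 given above, and the source of the Adgrg2 reads was not tested. Lman2l, for a lectin of the secretory pathway, fell in the 5 depots, by 0.24 in brown to 0.88 in subcutaneous fat. Echdc3, for a mitochondrial hydratase, fell in mesenteric, epididymal and retroperitoneal fat and rose in liver (0.39, adjusted p = 0.00647, limma).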

How the data were processed

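RNA libraries of 21 tissues were made with a stranded mRNA kit, per the labels' protocols. FastQC, STAR, HTSeq and DESeq2 are named in the submitters' processing notes, without versions; the genome build is not given in the sources used here. Values were deposited as CPM by the authors. Of 205 columns, 1 fitted no sample's labels and stayed unused; 1 gene with missing values was dropped. Whole reads were recovered for 100% of values (within 0.001 read), so the deposited CPM relate to all reads of a library, of which the table held 13.0% to 23.1%. Lowest chi-square per degree of freedom among 398 replicate pairs was 3.51, and none was counted as a duplicate. Main test: limma 3.58.1 with a trend in R 4.3.3 on log2(CPM + 1), genes averaging at least 10 CPM in the tissue, Benjamini-Hochberg adjustment over them, threshold 0.05. Where Hsd11b1 averaged under 10 CPM (8 tissues), genes with any read were fitted. Alternatives used edgeR 4.0.16 and DESeq2 1.42.0 on recovered reads, a pseudocount of 5, rescaling, array weights, a covariate of 10 genes, a fit over all libraries and left-out libraries. Single values were tested by exact permutation, two-sided. Scripts were tested on simulated data. Hsd11b1, the lists and the libraries doubted for their markers were chosen with earlier results of these data known. Named genes are the listed genes, the 3 coding genes on each side and the 5 most alike by each measure.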

Additional observations from a re-analysis of the deposited data

Results flagged for a closer look

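Among 40 groups of 4 or 5 libraries, 6 held an Hsd11b1 value far from the others, by its gap to the nearest value over the range of the group. For normally distributed values chance gives this in about 1 of 20 groups, and whether these CPM meet that condition was not tested. They were liver DIO 2 (421 CPM), heart lean 3 (31.3 CPM), adrenal DIO 1 (272.5 CPM), stomach DIO 5 (5.13 CPM), stomach lean 5 (31.0 CPM) and retroperitoneal fat DIO 1 (73.5 CPM). Markers of another tissue stood high in 4 of them: Acvr1c at 11.1 CPM in heart lean 3, and hepatocyte markers at 7763 CPM in adrenal DIO 1, 134 CPM in stomach DIO 5 and 963 CPM in stomach lean 5. Their part in these values was not tested.

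The diet difference of Hsd11b1 itself differed between tissues, by limma. The depot difference minus the liver difference was -2.06 in subcutaneous, -2.31 in mesenteric, -2.94 in epididymal, -2.01 in retroperitoneal and -1.13 in brown fat. Among depots, mesenteric minus brown fat was -1.17 and epididymal minus brown fat -1.81. Duodenum minus jejunum was 1.36, at levels under 6 CPM. This contrast and those among depots were added after the values had been seen. Their adjusted p cover the genes tested and not the pairs of tissues that could have been chosen.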

How the results depend on the processing

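The falls in the 5 fat depots and their 5 differences from liver kept direction and call under all alternatives run, except that the exact permutation test gave p = 0.0571 for mesenteric fat (-2.44). Leaving out each library in turn gave -2.36 to -2.06 in subcutaneous, -2.61 to -2.24 in mesenteric, -3.32 to -2.87 in epididymal, -2.30 to -2.02 in retroperitoneal and -1.44 to -1.15 in brown fat, and adjusted p of 1.3e-04 to 0.0050 for the F test among depots. DESeq2 called liver (-0.22), duodenum (0.90), kidney (-0.80), stomach (-1.89) and jejunum (-0.82), which limma did not. Array weights called duodenum (0.71) and kidney (-0.87) and turned hypothalamus to 0.11 and heart to 0.0023. The exact permutation p, unadjusted, was below 0.05 in duodenum (0.68), kidney (-0.78), stomach (-1.25) and jejunum (-0.68), and the fit over all libraries called stomach (-1.25, adjusted p = 5.6e-04). Without single libraries duodenum ranged from 0.63 to 0.76 (called without lean 3, adjusted p = 0.0171), hypothalamus from -0.17 to 0.035 (0.035 without lean 5, 0.032 without DIO 1, 0.029 without lean 4), heart from -0.32 to 0.13 and midbrain and brainstem from -0.058 to 0.16. Lean subcutaneous fat over liver was -1.44 after rescaling and -1.23 by edgeR, and 5 neighbouring pairs of lean tissues then passed after rescaling. The causes were not tested. No paired analysis was possible because the labels carry no replicate numbers and do not tie libraries to animals. Depth limits duodenum, jejunum, ileum, stomach and EDL most, where some libraries had 24 to 31 reads of Hsd11b1.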
